A study of Bos taurus with 14 samples.

Results

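The comparison described here is that of blood leucocytes of dairy cows on a high-grain diet (HG) with leucocytes of the same cows on forage (FD). The study used ruminally cannulated, non-lactating Holstein cows (Bos taurus), which were fed forage alone and were then moved to a diet with 65% concentrate, a model of subacute ruminal acidosis in which the rumen pH stays low for hours of the day. Leucocyte libraries of 3 cows (A, C and E) were analysed, 1 on each diet, so that each diet had 3 libraries and each cow was its own control. The FD blood was taken before the change of diet and the HG blood in the first week after it, so diet and time of sampling cannot be told apart. The white cells came from the buffy coat, the layer between plasma and red cells in centrifuged blood, and were not sorted by cell type. The set comprised the bovine (bta) miRNA names with at least 100 reads in each of the 6 libraries. There were 266 such names among 714 bovine names and 916 names in all, the rest being human (hsa) homologues. The read count chose the names and the diet did not. At the edge, bta-miR-181d and bta-miR-11991 were kept with 100 reads in their lowest library, while bta-miR-34c with 98 and bta-miR-133a with 97 were left out, and a name that fell below the minimum on 1 diet could not be in the set.

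MicroRNAs (miRNAs) are short RNAs that guide Argonaute proteins to messenger RNAs and lower their translation and stability. Related miRNAs form families that share the bases with which they pair to their targets, and neighbouring miRNAs are often cut from a common transcript, so that families and genomic clusters are the natural units in which to describe a shift. Blood cells have well known lineage miRNAs: miR-451, miR-144 and miR-486 in red cells and their precursors, miR-223 in granulocytes and monocytes, miR-150 in mature lymphocytes, and miR-142 in nearly all blood cells. The names are given below without the prefix bta-.

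The libraries held between 21764578 and 66070773 reads assigned to a name, 83.4% to 91.7% of the reads analysed. The defining white cell miRNAs were abundant in every library. In CPM (estimated counts per 1000000, scaled by edgeR's TMM method), miR-223 lay between 5054 and 7731, miR-150 between 4760 and 10836 and miR-142-5p between 4182 and 16483. The red cell miRNA miR-451 was nonetheless the most abundant member, with 31.0% ± 5.02 of the assigned reads (SD over the 6 libraries), ahead of miR-21-5p with 6.37% ± 1.15 and miR-486 with 5.21% ± 1.23. Of the 266 members, 85 had their highest level in the FD library of cow E, against 17 to 56 in each other library (72 against 15 to 64 on undivided reads, which count a read in full for every name it matches). That library was also the shallowest, so among rare names the read minimum favoured those that were relatively high in it. The choice of members can therefore raise its count, by an amount that was not tested. The same count over all names tested was not made. In unsorted cells, fewer cells of a type and less RNA per cell cannot be told apart.

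The diets differed little in most members. The fitted log2 fold change (HG over FD, from edgeR's quasi-likelihood test with a term for cow) had a median of -0.02 over the 266 members and of -0.01 over all 782 names tested. It was between -0.28 and 0.21 for the middle members, from the lower to the upper quartile, and between -1.02 and 0.65 for all of them. A positive value was found in 127 members, or 47.7%, against 48.5% of all names tested. After Benjamini-Hochberg adjustment over the 782 names, 10 of the 266 members passed an adjusted p of 0.05, or 3.76%, where 1.92% of all names tested did. Of these, 9 were lower on HG and 1 was higher. The corresponding shares of all names tested were 1.53% lower and 0.384% higher.

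**Figure D1:**
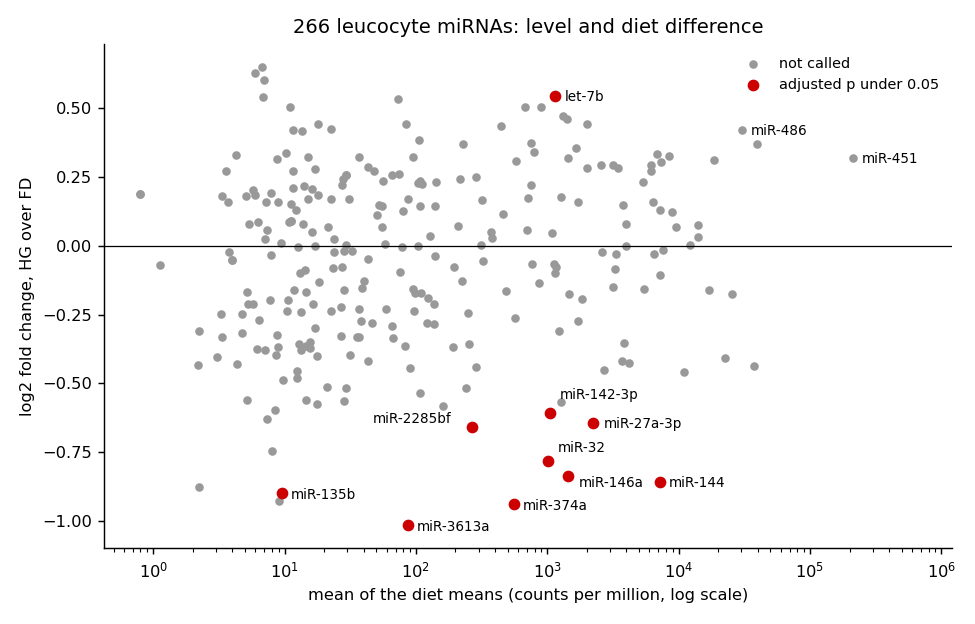
Fitted log2 fold change (HG over FD) of each of the 266 leucocyte miRNAs against the mean of its 2 diet means in CPM (log axis). The 10 members with an adjusted p under 0.05 (red) are let-7b above 0 and 9 members between -0.61 and -1.02, and the most abundant names, miR-451 and miR-15b, lie above 0 among the members not called, with miR-21-5p next in level and below 0.

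Where all 3 cows shared a direction, higher and lower members were nearly balanced. In 67 members HG was higher than FD in 3 of 3 cows, or 25.2%, against 19.8% of all names tested, and in 71 it was lower in 3 of 3, or 26.7%, against 19.3%. The sign within a cow depends on the kind of count. The kinds differ in how reads that match several names are counted, and each was scaled on its own. On estimated counts, which divide such reads among the names, the median log2 ratio of the members was 0.06 in cow A, 0.03 in cow C and -0.15 in cow E. On undivided reads it was -0.06, -0.06 and 0.06, so that all 3 medians crossed 0. In 99 of the 266 members the sign changed in at least 1 cow, and in 0 of the 10 called members. The sign of the fitted value differed in 4 of the 266. The part of the scaling in these changes was not tested. Undivided reads gave 62 members higher in 3 of 3 cows (18.5% of all names tested on those reads) and 70 lower (18.6%), of which 48 and 54 were among those of the estimated counts. Values below are from estimated counts unless undivided reads are named. In 25 members (9.4%, against 7.29% of all names) every HG library was above every FD library, and in 22 (8.27%, against 6.52%) every HG library was below. At an unadjusted p under 0.05 there were 73 members, which is 27.4% against 15% of all names tested. Of these, 35 were higher and 38 lower, where 7.42% and 7.54% of all names were. Calls were more frequent among abundant members. Of the 10, 6 were among the 63 members with a mean over 1000 CPM and 2 among the 49 between 100 and 1000 CPM. The 101 between 10 and 100 CPM held 1, and the 53 under 10 CPM held 1. At an unadjusted p under 0.05 (edgeR) there were 31, 14, 17 and 11 members in these groups. The members were chosen for high read counts, so their larger shares than those of all names cannot be told apart from level.

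The strongest call was miR-374a, whose gene lies on the X chromosome (chrX:81951234-81951255, plus strand, of the UMD3.1 assembly, on which all positions are given). Its level was 835 CPM in cow A, 762 in cow C and 583 in cow E on FD, and 495, 357 and 298 CPM on HG. Every HG library was below every FD library. It fell by 0.94 on the log2 scale (SE 0.13, edgeR, adjusted p = 0.00368). Its relative miR-374b, from another place on the X chromosome, was at 674, 669 and 509 CPM on FD and at 604, 518 and 426 CPM on HG, a difference of -0.26 (SE 0.12) that did not pass (edgeR, adjusted p = 0.337) although it had the same sign in 3 of 3 cows.

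The widest fall among the called members was that of miR-3613a (chr12:19542760-19542781, minus strand). FD libraries held 102, 135 and 112 CPM in cows A, C and E, and HG libraries 55.1, 57.1 and 59.5 CPM. The 3 HG values were close together and well below the FD values, and the fall was 1.02 on the log2 scale (SE 0.15, edgeR, adjusted p = 0.00576). Both miR-374a and miR-3613a were called in 11 of the 13 fits run, which is also true of miR-146a, and none of the 10 was called in more.

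Among the members with a known part in inflammation, miR-146a fell. It is induced by NF-kB signalling and restrains it by acting on the adaptor proteins TRAF6 and IRAK1 (chr7:74185055-74185078, plus strand). Its level on FD was 1541, 1615 and 2395 CPM in cows A, C and E, and on HG 1114, 823 and 1143 CPM. All HG values were below all FD values, by 0.84 on the log2 scale (SE 0.14, edgeR, adjusted p = 0.00895). The other member of its family, miR-146b, went the other way without passing: 69.8, 83.3 and 136 CPM on FD against 82.8, 107 and 144 CPM on HG, a log2 fold change of 0.23 (SE 0.15, edgeR, adjusted p = 0.523).

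The broadly expressed blood cell miRNA miR-142-3p (chr19:9527359-9527380, minus strand) fell by 0.61 (SE 0.12, edgeR, adjusted p = 0.0313). In cows A and C the level went from 1676 and 1553 CPM to 1049 and 904 CPM, and in cow E from 641 to 498 CPM. The fall was within each cow, and the diets overlapped because cow E was low on both. The opposite arm of the same hairpin, miR-142-5p, was several times as abundant, at 16483, 13318 and 7221 CPM on FD and 9460, 15570 and 4182 CPM on HG. It was lower on HG in cows A and E and higher in cow C, with a log2 fold change of -0.46 (SE 0.19, edgeR, adjusted p = 0.270).

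The red cell miRNA miR-144 (chr19:20797071-20797092, minus strand) was at 14762, 10057 and 3958 CPM on FD in cows A, C and E, and at 7174, 4222 and 3266 CPM on HG. The level in cow E was low on both diets, so that the diets overlapped, and the log2 ratio within the cow was -1.04 in cow A, -1.25 in cow C and -0.28 in cow E. It fell by 0.86 (SE 0.18, edgeR, adjusted p = 0.0313). Leaving out cow E brought the fall to 1.15, and leaving out cow C brought it to 0.63.

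The fall of miR-32 was similar in the 3 cows. This miRNA belongs to the family of miR-25 and miR-92, and no other member lies within 10 kb of it (chr8:100305165-100305187, minus strand). It was at 1569, 1393 and 905 CPM on FD and at 959, 694 and 584 CPM on HG, with the highest HG library (cow A) just above the lowest FD library (cow E). The log2 fold change was -0.78 (SE 0.12, edgeR, adjusted p = 0.00576). By contrast, the abundant members of its family were higher on HG in all cows without passing. These were miR-25, with 0.31 (SE 0.12, edgeR, adjusted p = 0.216), and miR-92a, with 0.12 (SE 0.12, edgeR, adjusted p = 0.722).

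The remaining called members that fell did so to levels at which the diets did not overlap. The first was miR-27a-3p, which belongs to the myeloid-linked cluster of miR-23a, miR-27a and miR-24 (chr7:12981844-12981863, minus strand). It went from 2533, 2699 and 2919 CPM on FD to 2011, 1561 and 1667 CPM on HG, a fall of 0.64 (SE 0.13, edgeR, adjusted p = 0.0313). The next was miR-2285bf, of a family known from ruminants (chrX:125791353-125791373, minus strand), which went from 358, 351 and 276 CPM to 226, 197 and 198 CPM. Its fall was 0.66 (SE 0.14, edgeR, adjusted p = 0.0313). The last was miR-135b, a miRNA known for acting on the WNT regulator APC, and by far the least abundant of the called members (chr16:3031964-3031986, minus strand). It was at 10.9, 13.8 and 12.8 CPM on FD and at 7.05, 6.68 and 6.24 CPM on HG, and fell by 0.90 (SE 0.20, edgeR, adjusted p = 0.0474).

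The only called member that rose was let-7b (chr5:117120190-117120211, plus strand), of the let-7 family that restrains growth genes such as HMGA2 and LIN28. The FD libraries of cows A, C and E held 923, 758 and 1146 CPM, and the HG libraries 1223, 1265 and 1611 CPM. All HG libraries were above all FD libraries. The rise was 0.55 on the log2 scale (SE 0.12, edgeR, adjusted p = 0.0413). It was the least stable call and passed in 5 of the 13 fits, closely followed by miR-142-3p and miR-144, which passed in 6 each. On undivided reads it had an adjusted p of 0.0732 in edgeR at a log2 fold change of 0.55.

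**Figure D2:**
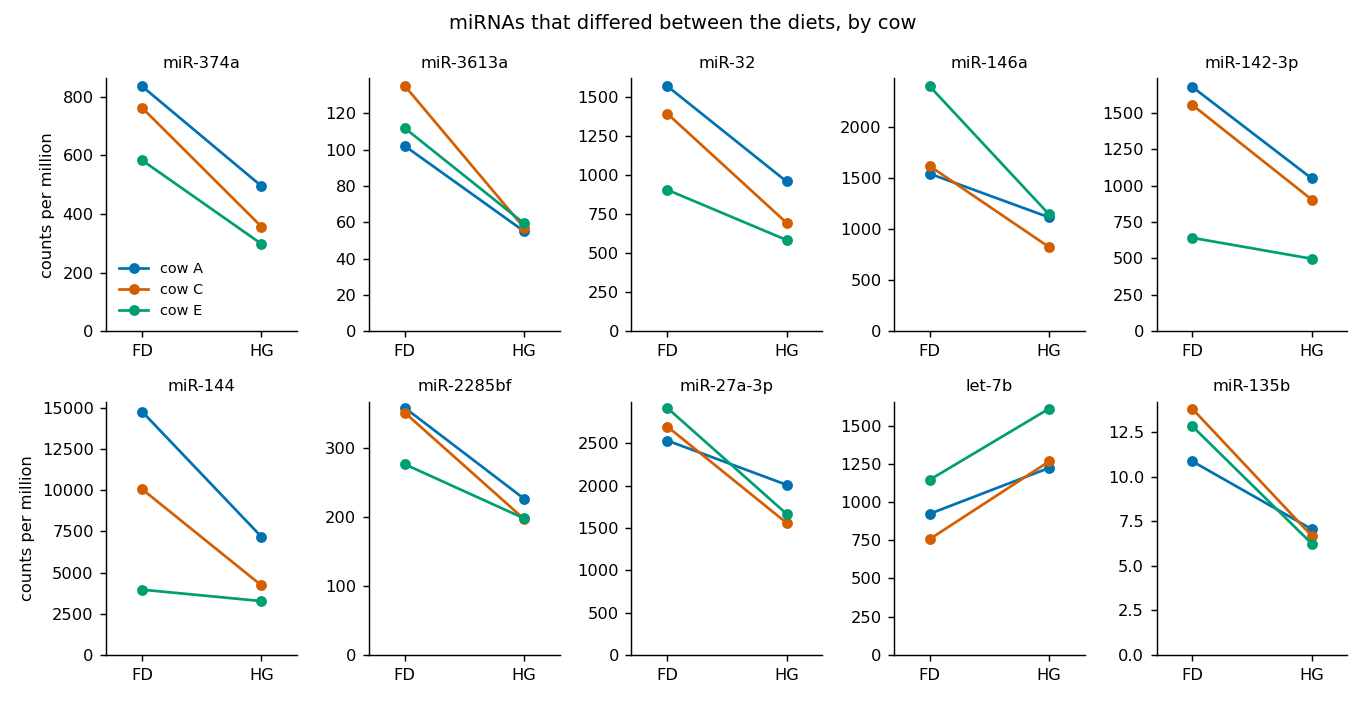
Level of the 10 called members (CPM, linear axis from 0) in each cow on FD and HG, with 1 line per cow. Each of the 9 members that fell did so in all 3 cows, let-7b rose in all 3, and cow E has the lowest levels of miR-142-3p and miR-144 on both diets.

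Below the called members stood a group with the same direction in every cow. On the higher side, miR-423-5p went from 537, 569 and 581 CPM on FD to 728, 891 and 783 CPM on HG, a log2 fold change of 0.51 (SE 0.12, edgeR, adjusted p = 0.0578). The values of miR-484, which is made without Drosha, were 733, 682 and 799 CPM on FD and 960, 1126 and 1056 CPM on HG, with 0.50 (SE 0.12) and the same adjusted p. For miR-320a, made without Drosha as well, they were 386, 391 and 353 CPM against 492, 611 and 437 CPM, with 0.43 (SE 0.13, edgeR, adjusted p = 0.125). The diets did not overlap in any of these 3. The other names on this side were miR-185 (0.44), miR-15b (0.37), miR-486 (0.42), miR-7857-3p (0.53) and the pair miR-339a and miR-339b (0.46 and 0.47), whose reads are almost the same. None of them passed, and miR-339a and miR-339b were nearly flat in cow A, with log2 ratios of 0.01 that became -0.11 on undivided reads.

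On the lower side, miR-29b came nearest, with 185, 166 and 227 CPM on FD and 147, 112 and 125 CPM on HG. Its log2 fold change was -0.58 (SE 0.15, edgeR, adjusted p = 0.0881), and it passed on undivided reads (edgeR, adjusted p = 0.0442). The abundant miR-21-5p, which is raised in many inflammatory states, went from 44032, 49789 and 35504 CPM on FD to 35327, 33236 and 26745 CPM on HG. That is a log2 fold change of -0.44 (SE 0.12, edgeR, adjusted p = 0.0898), and every HG library was below every FD library.

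Families were grouped by name, and 102 members fell into 26 families. All members were lower on HG in 10 families, all were higher in 4, and 12 were mixed. Only 13 of the 26 had 3 or more members. Small families often share a sign without any link, and no baseline was computed. In the miR-29 family, known for acting on collagen messages, the 4 members had log2 fold changes between -0.58 and -0.40 with a median of -0.43, against -0.02 for all members. All 4 were lower in 3 of 3 cows and 3 had an unadjusted p under 0.05. None passed after adjustment. The summed level of the family went from 4544, 4601 and 5001 CPM to 4215, 3610 and 2820 CPM, so the gap was narrow in cow A and wide in cow E.

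The let-7 family moved less than its called member. Of 9 members, 7 were positive, 4 were higher in 3 of 3 cows and the median was 0.15. Besides let-7b, the larger differences were those of let-7c (0.37), let-7d (0.35) and let-7a-5p (0.29). The abundant let-7g (0.03) and let-7f (0.07) hardly differed, and they carried the sum of the family, which changed by -0.14, 0.09 and 0.25 in cows A, C and E on the log2 scale (-0.24, 0.04 and 0.51 on undivided reads). In the family of miR-17, miR-20, miR-93 and miR-106, which promotes cell cycle entry, all 6 members were positive, from 0.08 to 0.30 with a median of 0.19. The 3 names of the miR-199 family lay between 0.21 and 0.34, with 1 of them higher in 3 of 3 cows.

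Other families split. In the family of miR-15, miR-16 and miR-195, known for restraining BCL2 and cyclins, 5 of 6 members were lower in 3 of 3 cows, from miR-424-5p (-0.60) and miR-195 (-0.56) through miR-16a (-0.41) to miR-16b (-0.18). On undivided reads 3 of the 6 were lower in 3 of 3 cows, and miR-16b was higher in cow E. The exception, miR-15b, was the most abundant of them and was higher in 3 of 3 cows (0.37, SE 0.11, edgeR, adjusted p = 0.125). The summed level of the family had log2 ratios of -0.07, 0.02 and 0.06 in cows A, C and E (-0.22, -0.12 and 0.24 on undivided reads). The family of miR-148 and miR-152 was lower throughout, between -0.42 and -0.10. In the miR-30 family, 2 members were positive and 4 negative around a median of -0.06. The family of miR-2284 and miR-2285, with 21 members the largest, had 11 positive and 10 negative members and a median of 0.03, and miR-2285bf was its 1 called member. The highest fold change in it was 0.32 and the lowest -0.75. In that family 3 pairs of names had equal counts and are not separate observations: miR-2284y with miR-2285av, miR-2284aa with miR-2284z, and miR-2284ab with miR-2285by.

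**Figure D3:**
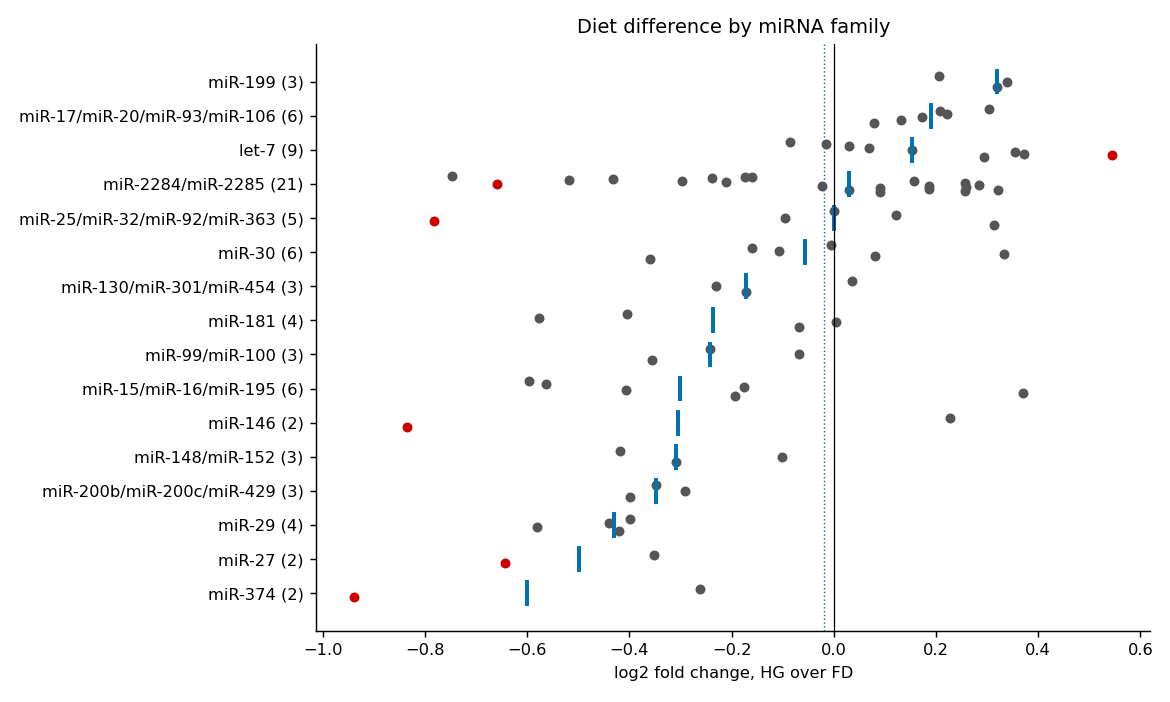
Fitted log2 fold change (HG over FD) of each member (points, red where the adjusted p was under 0.05) in families of 3 or more members and in those with a called member, with the number of members in brackets, the family median as a blue bar and the median of the 266 members as a dotted line. The miR-29 family and that of miR-148 and miR-152 lie wholly below 0, the miR-199 family and that of miR-17 and miR-106 wholly above, and the families of miR-15 and miR-16, of miR-146 and of miR-25 and miR-32 hold members on both sides.

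In the genome, 117 members lay within 10 kb of another member on the same strand, in 49 clusters. In 15 clusters all members were lower on HG, in 10 all were higher, and 24 were mixed. Only 11 of the 49 had 3 or more members. With 47.7% of all members positive, pairs often share a sign without any link, and no baseline was computed. The cluster of miR-144 and miR-451 on chromosome 19 spans 218 bases, from miR-451 (chr19:20796875-20796897, minus strand) to miR-144. The products are known to come from a common red cell transcript, miR-144 through Dicer and miR-451 through Argonaute 2 without Dicer. Here miR-144 fell, while miR-451 showed log2 ratios of -0.02, -0.15 and 1.15 in cows A, C and E, with a fitted value of 0.32 (SE 0.26, edgeR, adjusted p = 0.658). The value of cow E rests on its HG library, where miR-451 was credited with 99.8% of the reads matching it, against 51.3% to 51.4% in the other 5. On undivided reads the log2 ratios were -0.14, -0.23 and 0.40 and the fitted value 0.01 (edgeR, adjusted p = 0.989), and miR-144 fell there as well (-0.86). The difference between the members of a cluster was not tested.

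The cluster of miR-106b, miR-93 and miR-25 on chromosome 25, which in mammals lies in an intron of the replication gene MCM7, spans 465 bases. Its fold changes were 0.13, 0.30 and 0.31, and all 3 were higher in 3 of 3 cows. On undivided reads this held for miR-93 and miR-25, while miR-106b had log2 ratios of -0.08, -0.07 and 0.56 and was higher in cow E alone. The related miR-17 to miR-92a cluster on chromosome 12 was mixed, with 6 members between -0.13 and 0.22 and a median of 0.06. On chromosome 1, miR-15b and miR-16b lie within 168 bases and went opposite ways, with 0.37 and -0.18. On chromosome 16, miR-29b and miR-29c lie within 584 bases and were both lower, with -0.58 and -0.44. The clusters of miR-27a-3p with miR-23a on chromosome 7 (-0.64 and -0.15) and of miR-23b-3p, miR-27b and miR-24-3p on chromosome 8 (-0.14, -0.35 and -0.42, the most abundant of 5 members) were lower in all these names. The let-7a and let-7d cluster on chromosome 8 was higher, between 0.17 and 0.35. At a distance of 50 kb in place of 10 kb, 11 clusters had 3 or more members, the same number.

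Products of 1 hairpin were compared in 20 cases where both arms were members. The sign was the same in 10 and opposite in 10. Arms that went together were those of miR-21 (-0.44 for 5p and -0.38 for 3p), miR-142, miR-126 (-0.56 and -0.36) and miR-423 (0.51 and 0.28). Opposite arms were those of miR-199a, where 5p had -0.31 and 3p 0.32, and of miR-29d, where 5p had 0.24 and 3p -0.40. The rare arm miR-199a-5p was at 5.33 CPM or less in every library.

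By lineage, no list had more than 1 called member. The lists are counted over the names that passed the read minimum. Others drawn up for them, such as miR-203 for epithelium and miR-133a for muscle, are left out. Of the erythroid list, miR-144 fell and miR-451 and miR-486 did not. The level of miR-486 was 23951, 24370 and 28897 CPM on FD and 42940, 29174 and 32328 CPM on HG. It was higher in all cows, without overlap, at 0.42 (SE 0.14, edgeR, adjusted p = 0.181). In the myeloid list, 4 of 6 members were negative with a median of -0.29, and 1 was called, miR-27a-3p. The granulocyte and monocyte marker miR-223 was at 6363, 6655 and 5054 CPM on FD and 7731, 7598 and 5086 CPM on HG. Its log2 fold change was 0.16 (SE 0.13, edgeR, adjusted p = 0.599), and cow E was level.

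The lymphoid list had 5 of 7 members negative around a median of -0.07, with miR-146a called. Its defining member miR-150 was at 4760, 4799 and 10836 CPM on FD and at 6420, 6280 and 5662 CPM on HG. It was higher on HG in cows A and C, with log2 ratios of 0.43 and 0.39, and lower in cow E, with -0.94. The fitted value over the 3 cows was -0.03 (SE 0.26, edgeR, adjusted p = 0.979), and without cow E it was 0.41 (edgeR, adjusted p = 0.0117). The p-value without cow E rests on cows A and C alone and mostly on a spread estimated across names. On undivided reads the log2 ratios of miR-150 were 0.31, 0.31 and -0.72. The other 6 members summed to 5921, 5761 and 8388 CPM on FD and to 5862, 6246 and 6248 CPM on HG, log2 ratios of -0.01, 0.12 and -0.42. They were level in cow A and lower on HG in cow E. All 7 were negative in cow E and 6 positive in cow A, but on undivided reads 2 were positive in cow E, miR-181b and miR-342, and 4 in cow A.

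Of the platelet list, 2 of 6 members were positive and none was called. The positive ones were miR-199a-3p (0.32) and miR-197 (0.25). The negative ones were miR-126-5p (-0.56), miR-28 (-0.37), miR-126-3p (-0.36) and miR-199a-5p (-0.31). For miR-28 every HG library was below every FD library. The abundant miR-199a-3p was at 1594, 1329 and 935 CPM on FD and at 1763, 1647 and 1324 CPM on HG. The sum of the list, which is mostly miR-199a-3p, was higher by 0.10, 0.25 and 0.20 on the log2 scale. On undivided reads the sum was level in cow A (-0.01) and higher by 0.20 and 0.53 in cows C and E. In the list of miRNAs known to respond to inflammation, 5 of 7 members were negative with a median of -0.38, and miR-146a was called. The T cell and macrophage miRNA miR-155 was at 230, 266 and 323 CPM on FD and at 239, 217 and 229 CPM on HG, with -0.24 (SE 0.15, edgeR, adjusted p = 0.496). The sum of this list is mostly miR-21-5p.

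Most members known from tissues other than blood stood apart in cow E. The lists for epithelium, vessel wall and stroma, liver and gut, and muscle held 15 members, and 12 had their highest level in the FD library of cow E. The exceptions were miR-192, miR-194 and miR-499. In each of them cow E had the lowest FD level, at 661, 430 and 92.7 CPM. The read minimum can also raise the count of 12, because the FD library of cow E was the shallowest. The epithelial miR-205 was at 56.6, 93.1 and 343 CPM on FD in cows A, C and E, and at 73.3, 78.2 and 174 CPM on HG. All 6 members of the epithelial list, the miR-200 family with miR-141 and miR-205, were higher on HG in cow A and lower in cows C and E (on undivided reads miR-141 was lower in cow A too), and their sum was 135, 220 and 754 CPM on FD and 169, 182 and 384 CPM on HG. The smooth muscle miRNA miR-143 was at 697, 1488 and 2497 CPM on FD and at 662, 825 and 1460.5 CPM on HG, with -0.57 (SE 0.15, edgeR, adjusted p = 0.105). The liver miRNA miR-122 was at 21.8, 32.2 and 75.7 CPM on FD and at 30.4, 30.4 and 41.9 CPM on HG. Over the 15, the sum was 2327, 3165 and 4661 CPM on FD and 2373, 2349.5 and 3042 CPM on HG. The part of these members in the diet differences of the white cell miRNAs was not tested.

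**Figure D4:**
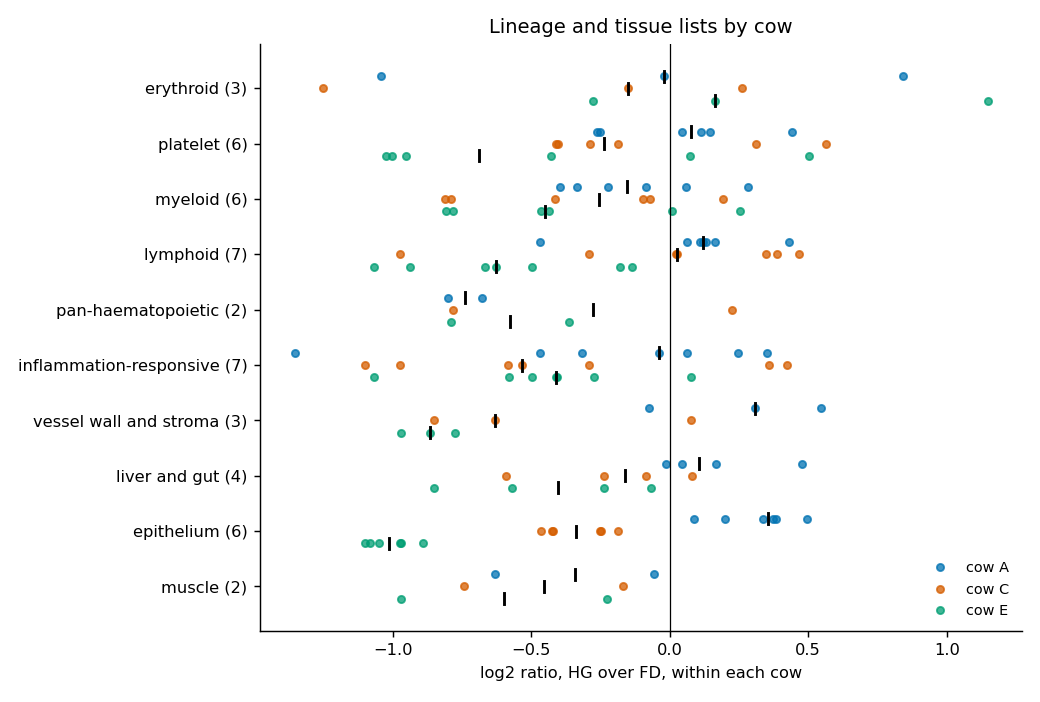
Log2 ratio of HG over FD within each cow (colours) for each member of the lineage and tissue lists, with the number of members in brackets and the median in that cow as a black tick. Every epithelial member is above 0 in cow A and near -1 in cow E, and the lymphoid members of cow E lie wholly below 0 while 6 of 7 lie above in cow A. The ratios are from estimated counts. On undivided reads 2 lymphoid members were above 0 in cow E and 4 in cow A, and miR-141 was below 0 in cow A.

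The cows did not respond alike. Over the 266 members, the log2 ratios of cows A and C correlated with Pearson's r of 0.68 (Spearman's rho 0.65), those of cows C and E with 0.45 (0.47) and those of cows A and E with 0.16 (0.13). These are descriptions across miRNAs, which share a library and are not independent. On undivided reads Pearson's r was 0.67, 0.47 and 0.17 for these pairs. In 54 members HG was higher in cows A and C and lower in cow E, and in 15 it was lower in cows A and C and higher in cow E. On undivided reads these numbers were 22 and 50, so which of the patterns is the more frequent turns with the kind of count. Without cow E, 62 members were called, where 13.6% of the 750 names tested in that fit were, and they included all 10 calls made with 3 cows. That fit held cows A and C alone, so its p-values rest mostly on a spread estimated across names and little on the spread between cows. Of the 62, 29 were higher (6.67% of all names in that fit) and 33 lower (6.93%). In cow E itself, 50 of the 62 had the same direction and 12 the opposite one. By the undivided reads of cow E 11 had the opposite direction, and 9 had it on both. Among these 9 was miR-150, whereas miR-191, with -0.08 in cow E on estimated counts, had 0.14 there on undivided reads and was then higher in all cows. Among the 50 were miR-486 (0.55 without cow E, edgeR, adjusted p = 6.86e-05) and miR-33a, which lies in the cholesterol regulator gene SREBF2 and had -0.90 without cow E (edgeR, adjusted p = 0.000307) but -0.35, -1.48 and -0.05 in the 3 cows, the last of which was 0.16 on undivided reads. Without cow A, 3 members were called. Without cow C, none was called in edgeR, with 14 members at an unadjusted p under 0.05.

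The counts themselves depend on how reads shared by several names were divided. The estimated count gives each name a part of the reads that match it and others, and in 134 of the 266 members that part was under 75% in every library. Where the part is the same in all libraries it does not touch the ratio of a name's own counts. The scaled ratio can still change, because each kind of count was scaled on its own. In 11 members the highest part was over 1.1 times the lowest. Outside these 11, miR-223 had log2 ratios of 0.28, 0.19 and 0.01 in cows A, C and E, and of 0.16, 0.11 and 0.22 on undivided reads. In the HG library of cow E, where the part credited to miR-451 was high, the human twin hsa-miR-451a had 23316 reads, against 5002655 in the FD library of the same cow. For miR-147, an inflammation-responsive miRNA, the part was 98.9% in the FD library of cow A and 50% in the other 5, and its log2 fold change was -0.93 on estimated counts (SE 0.24, edgeR, adjusted p = 0.0888) and -0.58 on undivided reads (edgeR, adjusted p = 0.228). None of the 10 called members was among the 11. On undivided reads 10 members were called as well (2% of the 800 names tested there), all lower (1.88% of all names), and 8 of them were calls of the estimated counts.

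**Figure D5:**
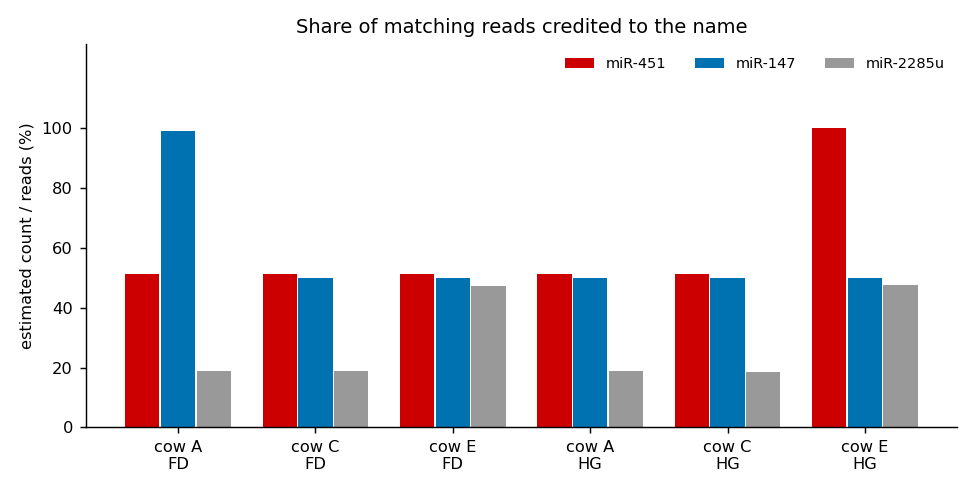
Estimated count as a percent of the reads matching the name, for 3 members in each of the 6 libraries. miR-451 stands at 51.3% to 51.4% in 5 libraries and 99.8% in the HG library of cow E, miR-147 at 98.9% in the FD library of cow A and 50% elsewhere, and miR-2285u at 18.6% to 18.9% in cows A and C and 47.1% to 47.5% in cow E.

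In plasma of the study's cows, 4 libraries on each diet, the 10 called members were present in every library, with at least 47 reads. The levels there, in CPM of each library's own total, overlapped between the diets for all 10. Of the 266 members, 15 had every HG library above every FD library in plasma, or 5.64%, against 5.44% of the 551 names there with at least 10 reads in all, and 0 had every HG library below. For miR-374a they ran from 159 to 1799 CPM with a median of 422 on FD, and from 425 to 899 CPM with a median of 763 on HG. For miR-146a they ran from 900.2 to 2505 CPM with a median of 1320 on FD, and from 603 to 1272 CPM with a median of 1077 on HG. For let-7b they ran from 7351 to 20757 CPM with a median of 14613 on FD, and from 6986 to 17953 CPM with a median of 8762 on HG.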

How the data were processed

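The authors prepared the libraries with a NEXTflex small RNA kit, demultiplexed them with bcl2fastq 2.20 and, per the paper's methods, assigned reads with sRNAbench to bovine and human miRBase names on the UMD3.1 genome. The deposited files give the read count and the estimated count of each name, in which the authors divided reads that match several names, and the number of distinct reads (counts). The depth-scaled values the authors deposited beside them (a score here) were used only to recover the reads assigned, and tables of the whole series were not used.

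Estimated counts, rounded to whole numbers, were tested with edgeR 4.0.16 (R 4.3.3, quasi-likelihood, robust, TMM scaling, terms for cow and diet) over 782 names with at least 10 counts in all, with Benjamini-Hochberg adjustment. Within-cow ratios and CPM came from the same scaling, which was computed anew for undivided reads. DESeq2 1.42.0 was an alternative. Standard errors are the fold change over the root of F. The cow letters in the titles pair the libraries: deviations from the diet means correlated at 0.80, 0.65 and 0.86 within cows A, C and E and between -0.78 and 0.44 across cows. The cows were sampled once per diet, so each test has 3 pairs. Its p-value rests in large part on a spread estimated across names, and not on the spread between cows alone. The script was tested on simulated data.

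The members and lists were chosen with earlier results of these data known. Named were the called members, the 10 with the smallest p in each direction and the same sign in 3 of 3 cows, the members of the lists, the called and 2 most abundant members of the families and clusters described, and those at the read minimum. Other names given (let-7c, miR-16a, miR-195, miR-23b-3p, miR-29c, miR-29d, miR-33a, miR-423-3p, miR-2285u and the names of equal counts) were chosen after their values were seen. Families were grouped by name in place of seed sequence, and GC content was not tested, because mature sequences were not used here.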

Additional observations from a re-analysis of the deposited data

Results flagged for a closer look

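bta-miR-379, from the imprinted DLK1-DIO3 region on chromosome 21, was lower on HG in the leucocytes of every cow and higher in plasma. In leucocytes the log2 fold change was -0.236 (SE 0.19, edgeR, adjusted p = 0.628), which did not pass. In plasma all 4 HG libraries (104 to 198 CPM, median 126) were above all 4 FD libraries (22.8 to 92.4 CPM, median 37.5). The separation in plasma was shared with 14 other members, since 15 of the 266 (5.64%) had all HG above all FD libraries there and 0 had them below, and bta-miR-494 of the same region was among the 15. The difference between leucocytes and plasma was not tested, and the leucocyte level was low, between 8.68 and 12.7 CPM.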

How the results depend on the processing

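With the pairing by cow left out (no replicate block), 0 members were called in edgeR, higher or lower, with 22 at an unadjusted p under 0.05. DESeq2's Wald test called 19 members, 3 higher and 16 lower, and bta-miR-423-5p and bta-miR-484 were among them. With DESeq2's size factors in edgeR 5 were called, 0 higher and 5 lower, and with bovine names alone 3, 0 higher and 3 lower. With no filter on low counts 11 were called, with edgeR's own filter 9 and on undivided reads 10, and in these let-7b was lost, so that 0 were higher. Leaving out a cow gave 0 to 62 calls, 0 to 29 higher and 0 to 33 lower, the lowest without cow C and the highest without cow E. In the fit without cow E the spread was mostly estimated across names. A minimum of 1000 reads left 149 members, of which 74 were higher and 9 were called, and a minimum on the mean left 314, of which 12 were called, 2 of them higher. Scaling by library totals and fitting without robust estimates kept all 10 calls.

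The cause of these changes was not tested. All 10 called members kept their direction in every fit. With a cow left out, the log2 fold change of bta-miR-451 ranged from -0.0874 to 0.59, of bta-miR-150 from -0.23 to 0.41, of bta-miR-205 from -0.56 to 0.0593, of bta-miR-122 from -0.42 to 0.19, of bta-miR-199a-5p from -0.60 to 0.0629, of bta-let-7f from -0.10 to 0.28 and of bta-let-7g from -0.0095 to 0.15, and each of these reversed without cow E. bta-let-7g was also at -0.0145 with no filter. GC correction and other seed lengths were not run. With 3 cows, the smallest difference called was 0.55 on the log2 scale, and the shallowest library limits the members near 100 reads.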
